A study of Mus musculus with 12 samples.

Results

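A set of 10 miRNAs known from blood cells, microglia and inflamed tissue was followed through small RNA libraries of mouse frontal cortex (FCx) and hippocampus (HP): mmu-miR-21, miR-142-3p, miR-142-5p, miR-223, miR-146a, miR-146b, miR-155, miR-150, miR-451 and miR-144. They were chosen by name, and star forms were kept apart. All 10 of them occur among the 469 miRNAs listed in the count files, and all 10 passed the filter on low counts that 431 miRNAs passed (a total of 2 counts or more over the libraries of either region). Together they held 844.5 to 1518 CPM (counts scaled to a library total of 1000000 miRNA counts) in the FCx libraries and 874.3 to 2077 CPM in the HP libraries, which is a mean of 0.116% and 0.161% of the counts. Of the FCx counts of the 10 miRNAs, 89.5% came from miR-21, miR-146a and miR-146b, 8.34% from miR-451 and 2.19% from the 6 others, and in HP these shares were 93.4%, 4.96% and 1.66%. These shares are of counts summed over libraries of unequal depth, so they do not compare the regions. In FCx, 1636 of the 2781 counts and 204 of the 232 miR-451 counts came from 1 library (adaptor index 7). In HP, the library of that index gave 10294 of 19827 counts and 709 of 984 miR-451 counts.

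The tissue came from untreated male C57BL/6J mice of 8 weeks, killed by cervical dislocation, whose brains were rinsed in PBS. The sources used here name no perfusion, so blood may remain in the vessels of the dissected tissue. FCx was cortical tissue of a slice from Bregma -1.5 to -3.5, and HP was taken entire. For each region the tissue of 3 mice was pooled and RNA of 15 to 35 nt was used for 3 libraries, which differ in a 6 nt index at the end of the 5′ adaptor that is ligated to the miRNA: index 3 (UUAGGC), index 7 (CAGAUC) and index 11 (GGCUAC). Every library was sequenced once alone and once pooled with the other two of its region, and the counts of its 2 runs were added. The 3 libraries of a region are therefore technical repeats of 1 RNA pool, and SDs and p-values give the spread between libraries, not between mice. The libraries held 391410, 1461732 and 652449 counts in FCx and 3206221, 4956117 and 4053518 counts in HP (index 3, 7 and 11), so 3 counts correspond to 2.05 to 7.66 CPM in FCx and to 0.605 to 0.936 CPM in HP. In tissue of mixed cells, fewer cells of a type and less of a miRNA per cell cannot be told apart.

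A miRNA is cut from a hairpin precursor and guides an Argonaute protein to mRNAs that pair with its seed, bases 2 to 8 of the mature strand. miR-142 and miR-223 are made in cells of the haematopoietic lineage, miR-142 in all of them, microglia included, and miR-223 above all in neutrophils and other myeloid cells. miR-451 and miR-144 come from 1 precursor transcript of erythroid cells, in which miR-451 is among the most abundant miRNAs, and miR-451 is unusual in being matured by Argonaute 2 rather than Dicer. miR-150 marks mature lymphocytes and miR-155 activated immune cells. miR-146a and miR-146b are induced by inflammatory signals, miR-146a through NF-κB, and miR-21 rises in many injured and inflamed tissues. These miRNAs are also made by glia, neurons or vessel cells and are no markers of blood.

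The mature sequences below (RefSeq, GRCm38.p6 table) are shown because they identify the strand that each name stands for and because their seeds show which members could share targets; the counts themselves rest on the entries of miRBase 11. A sequence was matched for 9 of the 10 miRNAs. Capitals mark the seed.
mmu-miR-21: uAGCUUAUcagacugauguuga
mmu-miR-146a: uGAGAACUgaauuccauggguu
mmu-miR-146b: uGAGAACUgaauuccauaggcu
mmu-miR-451: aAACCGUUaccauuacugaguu
mmu-miR-144: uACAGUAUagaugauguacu
mmu-miR-142-5p: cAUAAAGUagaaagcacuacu
mmu-miR-142-3p: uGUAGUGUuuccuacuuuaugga
mmu-miR-223: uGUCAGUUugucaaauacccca
mmu-miR-155: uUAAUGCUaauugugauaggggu
The 9 sequences hold 8 distinct seeds, and only miR-146a and miR-146b share one.

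By the annotation of the build the files use (NCBIM37), the hairpins lie at 9 loci, 5 of them on chromosome 11. Mir144 (chr11:77886507-77886572) and Mir451 (chr11:77886672-77886743) are on the plus strand with 99 bases between them, and no other gene overlaps either. Mir21 (chr11:86397569-86397660, minus strand) overlaps an exon of Vmp1 on the same strand, and Mir142 (chr11:87570366-87570429, plus strand) lies within the noncoding transcript A430104N18Rik, outside its annotated exons. Mir146, the miR-146a hairpin, is intergenic at chr11:43187899-43187963 on the minus strand. Mir150 is intergenic at chr7:52377127-52377191, Mir155 lies in an exon of its noncoding host transcript at chr16:84714385-84714449, Mir146b lies in an intron of Tmem180 at chr19:46417252-46417360, and Mir223 lies in an exon of the noncoding F630028O10Rik at chrX:93438156-93438265, all on the plus strand.

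The levels covered more than 3 orders of magnitude. In both regions miR-21 and miR-146b were the highest and miR-142-3p and miR-144 the lowest. Among the 469 miRNAs, miR-146b ranked 74 in FCx and 71 in HP, miR-21 ranked 75 and 60, miR-146a 116 and 111, and miR-451 161 and 149, whereas miR-150, miR-142-5p, miR-155, miR-223, miR-142-3p and miR-144 ranked between 236 and 391. The ranges over the 3 libraries of miR-21 and miR-146b overlapped, as did those of miR-146a and miR-451, of miR-451 and miR-150, and of miR-150 and miR-142-5p. In both regions the lowest miR-146b library lay above the highest miR-146a library, and the lowest miR-142-5p library lay above the highest miR-155 library. The ranges of miR-155, miR-223, miR-142-3p and miR-144 overlapped from each to the next.

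**Figure D1:**
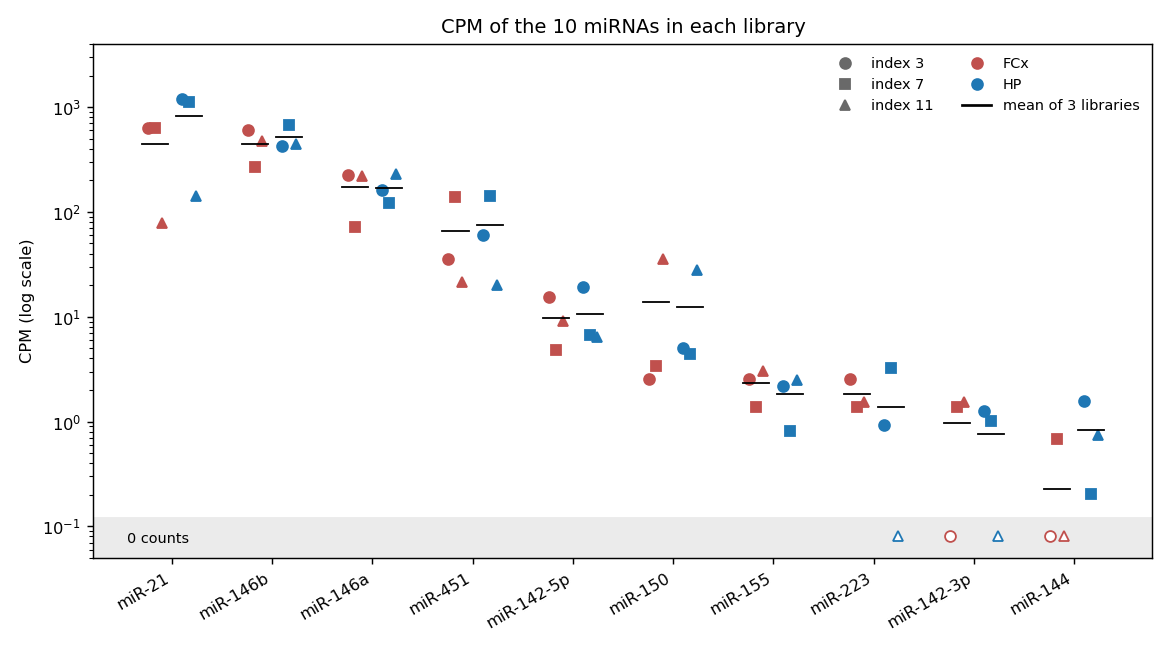
CPM of the 10 miRNAs (log axis) in the FCx (red) and HP (blue) libraries; the marker gives the adaptor index, the bar the mean of 3 libraries, and open markers in the grey band libraries with 0 counts. miR-21, miR-146b and miR-146a sit at the top, the 4 lowest miRNAs sit at 3.23 CPM or below, and for miR-21 and miR-150 the index 11 libraries are far from the other two in both regions.

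Among the inflammation-induced members, miR-21 stood at 628.5, 627.3 and 78.2 CPM in the FCx libraries and at 1191, 1127 and 141.1 CPM in the HP libraries (index 3, 7 and 11). In each index the HP library was higher, but the index 11 libraries of both regions were far below the others, so the ranges of the regions overlap. The mean was 445 ± 317 CPM for FCx and 820 ± 589 CPM for HP (SD over 3 libraries). Within an index, HP was 1.89 times FCx at index 3 (95% interval from the counts 1.67 to 2.16), 1.80 times at index 7 (1.68 to 1.93) and 1.81 times at index 11 (1.35 to 2.45). These intervals, like the others given for ratios, are exact and cover counting error only. With TMM scaling the ratios were 3.20, 1.60 and 2.88. By library totals the ratio was also above 1 in the individual and in the pooled run of every index. Of all 431 miRNAs, 18.6% were higher in HP in all 3 indexes.

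miR-146b, known like miR-146a to target transducers of Toll-like receptor signals, stood at 602.9, 267.5 and 472.1 CPM in FCx and at 424.2, 669.3 and 447.0 CPM in HP. By library totals the order of the regions was not the same in each index. FCx was 1.42 times HP at index 3 (1.23 to 1.63), 0.400 times at index 7 (0.359 to 0.444) and 1.06 times at index 11 (0.933 to 1.19). The related miR-146a had 227.4, 71.8 and 222.2 CPM in FCx and 162.8, 121.3 and 228.4 CPM in HP. Its ratio of the regions differed between the indexes in the same order as that of miR-146b: FCx was 1.40 times HP at index 3 (1.10 to 1.75), 0.592 times at index 7 (0.477 to 0.730) and 0.973 times at index 11 (0.811 to 1.16). Scaled by the trimmed mean of M-values (TMM) instead of library totals, both miRNAs lay on the HP side in all 3 indexes. At index 3, 7 and 11, FCx over HP was 0.842, 0.449 and 0.662 for miR-146b and 0.828, 0.666 and 0.610 for miR-146a. The index 3 ratios changed side because the TMM factor of the FCx index 3 library was 1.58 and that of HP was 0.938.

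miR-155 had 1, 2 and 2 counts in FCx and 7, 4 and 10 counts in HP. These small counts gave 1.37 to 3.07 CPM in FCx and 0.807 to 2.47 CPM in HP. By library totals FCx was higher in each of the 3 indexes, as it was for 19.7% of all 431 miRNAs. Every interval of the ratio includes 1, the narrowest from 0.132 to 5.83. After TMM scaling FCx over HP was 0.693, 1.91 and 0.779, so the direction was not the same in each index.

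Of the erythroid pair, miR-451 stood at 35.8, 139.6 and 21.5 CPM in FCx and at 60.2, 143.1 and 20.2 CPM in HP. Index 7 was the highest and index 11 the lowest library in both regions, and the regions overlapped. The mean was 65.6 ± 64.5 CPM for FCx and 74.5 ± 62.6 CPM for HP (SD over 3 libraries). Within an index FCx over HP was 0.594 (0.319 to 1.02), 0.976 (0.831 to 1.14) and 1.06 (0.556 to 1.88). With TMM scaling these ratios were 0.352, 1.10 and 0.665. miR-144, from the same transcript, had 0, 1 and 0 counts in FCx and 5, 1 and 3 in HP. In the FCx libraries with 0 counts, 3 counts would allow up to 7.66 and 4.60 CPM. Over the HP libraries miR-451 had 984 counts and miR-144 had 9, a ratio of 109, which rests on index 7 (709 counts to 1). Without that library the ratio was 34.4. Beside the 10 miR-144 counts of all libraries there were 6 genome alignments at its locus. Beside the single counts of the FCx and HP index 7 libraries there were 0, and the reason was not tested. The third erythroid marker, miR-486, had 31.5 to 43.4 CPM in FCx and 14.1 to 22.2 CPM in HP. Its regions did not overlap, unlike those of miR-451 and miR-144. FCx lay above HP without overlap for 5.57% of all 431 miRNAs. 

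The myeloid markers were near the limit of the depth. miR-223 had 1, 2 and 1 counts in FCx and 3, 16 and 0 in HP, and miR-142-3p had 0, 2 and 1 counts in FCx and 4, 5 and 0 in HP. Each was at 3 counts or fewer in most libraries, 5 of 6 for miR-223 and 4 of 6 for miR-142-3p. The other arm of the Mir142 hairpin, miR-142-5p, was higher, with 15.3, 4.79 and 9.20 CPM in FCx and 19.0, 6.66 and 6.41 CPM in HP. Over 3 libraries miR-142-5p had 19 counts against 3 of miR-142-3p in FCx, and 120 against 9 in HP. The intervals of its FCx over HP ratio include 1 in each index, the narrowest from 0.269 to 1.65.

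miR-150, the lymphocyte marker, had 2.55, 3.42 and 35.3 CPM in FCx and 4.99, 4.44 and 27.9 CPM in HP. The index 11 library was the highest in both regions. FCx over HP was 0.512, 0.771 and 1.26 within the indexes, with intervals that include 1 (0.770 to 1.99 at index 11, where the counts were 23 and 113). At index 3 the FCx and HP counts were 1 and 16, and at index 7 they were 5 and 22.

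**Figure D2:**
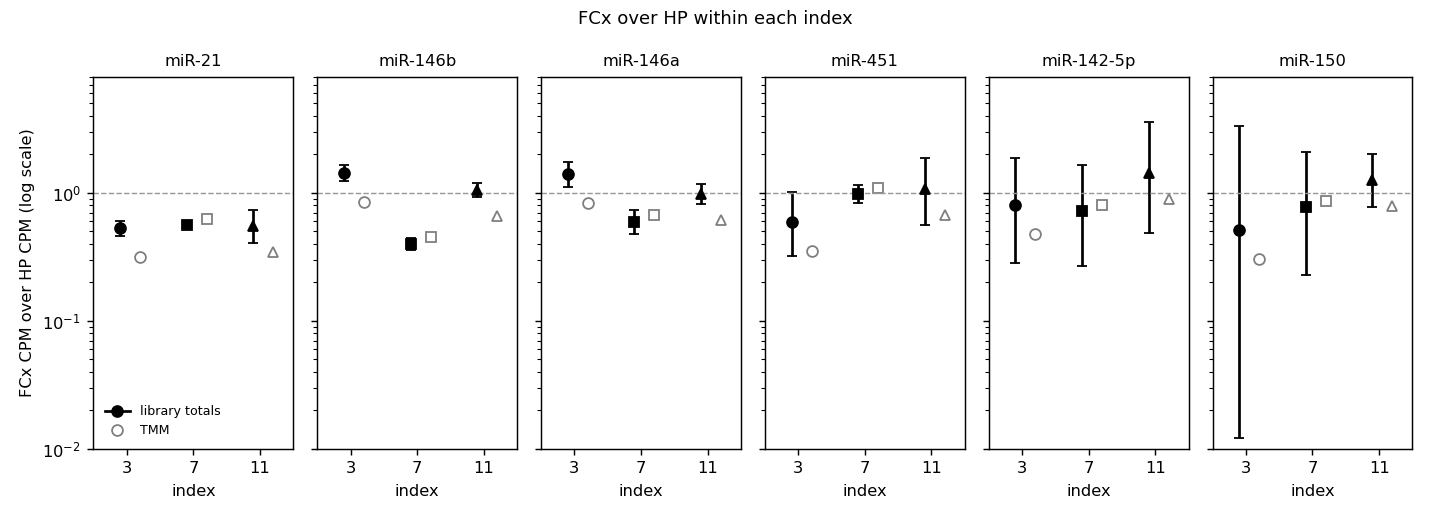
FCx CPM over HP CPM within each adaptor index (log axis) for the 6 miRNAs with the most counts. Filled markers with bars give the ratio of library totals and its 95% counting interval, and open markers the ratio after TMM scaling. miR-21 lies below 1 in all 3 indexes under both scalings, whereas miR-146b and miR-146a lie above 1 at index 3 and below 1 at index 7 by library totals.

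To ask whether the regions differed beyond the spread between libraries, a fit over all 431 miRNAs was made (edgeR quasi-likelihood test, TMM, Benjamini-Hochberg adjustment). It called 2 miRNAs, 0.464% of those tested, and 0 of the 10 miRNAs. None of the 10 had an unadjusted p under 0.05 in this fit, where 3.94% of all miRNAs did. The Wald test of DESeq2 and the exact test of edgeR on single lanes also called 0 of the 10. The exact test took the 2 runs of a library as separate replicates, which they are not. Their median log2 fold change (FCx over HP) was -0.49, beside -0.37 for all miRNAs. The ranges of FCx and HP overlapped for all 10 miRNAs. Ranges without overlap were rare among all 431 too, with FCx above HP for 5.57% and HP above FCx for 3.48%, so this does not set the 10 apart.

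The libraries of the same index deviated together from the means of their regions, so the fit was repeated with the index as a block. With the block, 77 miRNAs were called, 17.9% of those tested, 55 of them higher in HP (12.8%) and 22 higher in FCx (5.10%). Of the 10 miRNAs, 1 was called. miR-21 was lower in FCx by a log2 fold change of -1.28 (SE 0.30, 95% interval -1.86 to -0.70, edgeR adjusted p = 0.000317), which is 0.90 below the median of all miRNAs (-0.38). With library totals in place of TMM the median was -0.01 and miR-21 was still called, at -0.87 (SE 0.30, adjusted p = 0.0370), as were 13% of all miRNAs. The call was lost when the block was fitted without index 3 (-1.06, adjusted p = 0.125) or without index 11 (-0.87, adjusted p = 0.0995), which is 0.77 and 0.85 below the medians of those fits, and was kept without index 7 (-1.27, adjusted p = 0.0105). The next of the 10 was miR-146b at -0.67 (SE 0.29), with an unadjusted p = 0.0197 and an adjusted p = 0.0894 in the edgeR fit with the block. The other 8 had adjusted p-values from 0.194 to 0.998 in that fit.

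Several of these miRNAs differed between the adaptor indexes. An edgeR test of the 3 indexes against each other, with region as a covariate, called 264 of the 431 miRNAs (61.3%) and 5 of the 10. miR-150 was higher with index 11 than with index 3 by 3.15 on the log2 scale (adjusted p = 3.58e-12). miR-21 was lower with index 11 than with index 3, at -2.54 (adjusted p = 1.98e-12). miR-451 was higher with index 7 than with index 3 by 1.79 and lower with index 11, at -0.83 (adjusted p = 8.32e-12). miR-146a was at -0.69 with index 7 and at 0.75 with index 11 (adjusted p = 0.000305), and miR-142-5p at -1.42 and -0.85 (adjusted p = 0.0447). The calls of miR-21, miR-150 and miR-451 held in all 12 alternative fits, that of miR-146a in 11 and that of miR-142-5p in 5 of them. miR-146b (adjusted p = 0.666) and the 4 miRNAs with few counts (0.227 to 0.732) were not called. From the lowest to the highest index, miR-21 spanned 8.04-fold in FCx and 8.44-fold in HP, and miR-150 spanned 13.8-fold and 6.28-fold, although the libraries of a region came from the same RNA. The FCx span of miR-150 rests on 1 count in the index 3 library, so its size is uncertain.

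**Figure D3:**
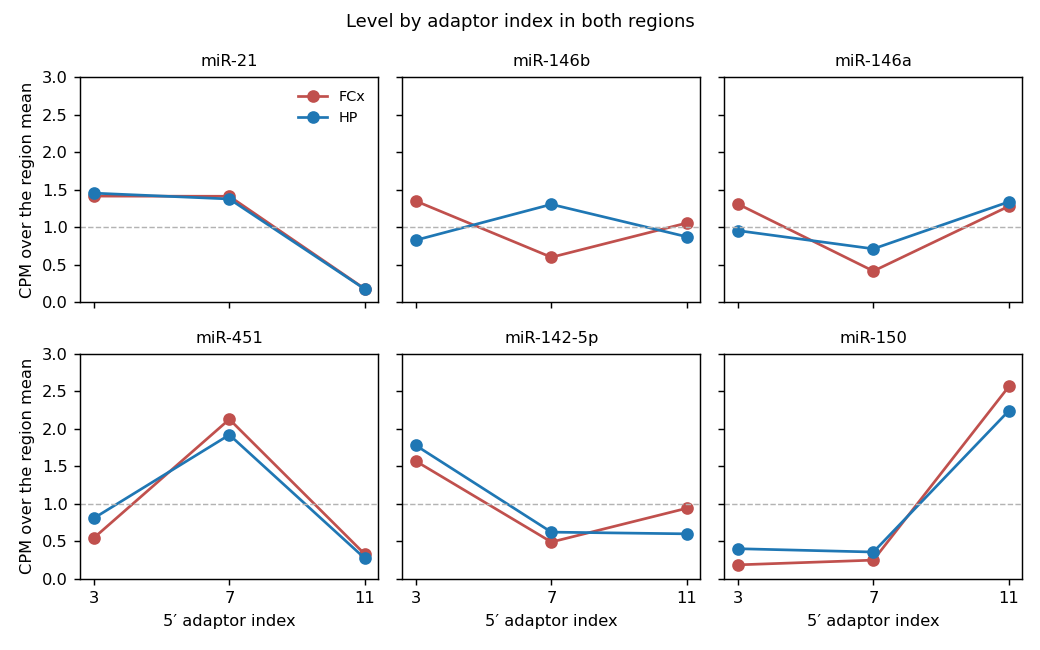
CPM of 6 miRNAs in each library divided by the mean of the 3 libraries of its region, against the adaptor index, for FCx (red) and HP (blue). The lines of both regions nearly coincide for miR-21, miR-451 and miR-150, and run in different directions between index 3 and index 7 for miR-146b.

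Repeat runs of the same library were closer to each other. In the 24 pairs of runs in which one of the 10 miRNAs had at least 10 counts in both, the pooled lane over the individual lane ranged from 0.707 to 1.30 (median 1.02), and 5 of the 24 counting intervals excluded 1. Over the 6 libraries, the profile of log2 CPM most like that of miR-21 among 256 miRNAs was that of miR-7b (Pearson r = 0.99), followed by miR-26b and miR-152. For miR-451 the closest were miR-338-3p (0.98), miR-222 and miR-134, and for miR-150 they were miR-708* (0.97), miR-101a and miR-99a. For miR-146a they were miR-667 (0.97), miR-106b and miR-186, for miR-146b miR-191 (0.95), miR-129-3p and miR-30a*, and for miR-142-5p miR-23b (0.97), miR-340-5p and miR-30c. These correlations describe 6 libraries that share 2 RNA pools, 3 indexes and their depth, and were not tested.

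The genome alignments, a readout that the choice of miRNAs did not use, show at which base these miRNAs began. Of all genome alignments 83.6% were 22 nt long and none was over 23 nt, so the 5′ end carries the information and the length does not. Of the alignments at the miR-21 arm, 99.0% of 10201 began at the RefSeq start, and at miR-146a, miR-146b and miR-451 it was 98.5% of 2295, 99.1% of 2462 and 96.4% of 1213. All 26 alignments at miR-155 and 21 of 23 at miR-223 began there too.

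Of the 11 alignments at miR-142-3p, 6 began at the RefSeq start. miR-142-5p had another most frequent start. Of its 132 alignments, 9 (6.82%) began at the RefSeq start, 96 (72.7%) began 2 nt upstream and 20 (15.2%) began 3 nt upstream. The start 2 nt upstream was the most frequent in every library, with 3 of 5, 4 of 7 and 4 of 5 alignments in FCx and 39 of 57, 23 of 31 and 23 of 27 in HP. A start shifted by 2 or 3 nt places other bases at positions 2 to 8, as the RefSeq form and the 22 nt from each upstream start show, with these positions in capitals.
RefSeq start: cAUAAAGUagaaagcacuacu
2 nt upstream: cCCAUAAAguagaaagcacuac
3 nt upstream: aCCCAUAAaguagaaagcacua
The letters are those of the RefSeq hairpin at these starts. Read from its most frequent 5′ end, bases 2 to 8 of miR-142-5p are CCAUAAA in both regions, in place of AUAAAGU.

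**Figure D4:**
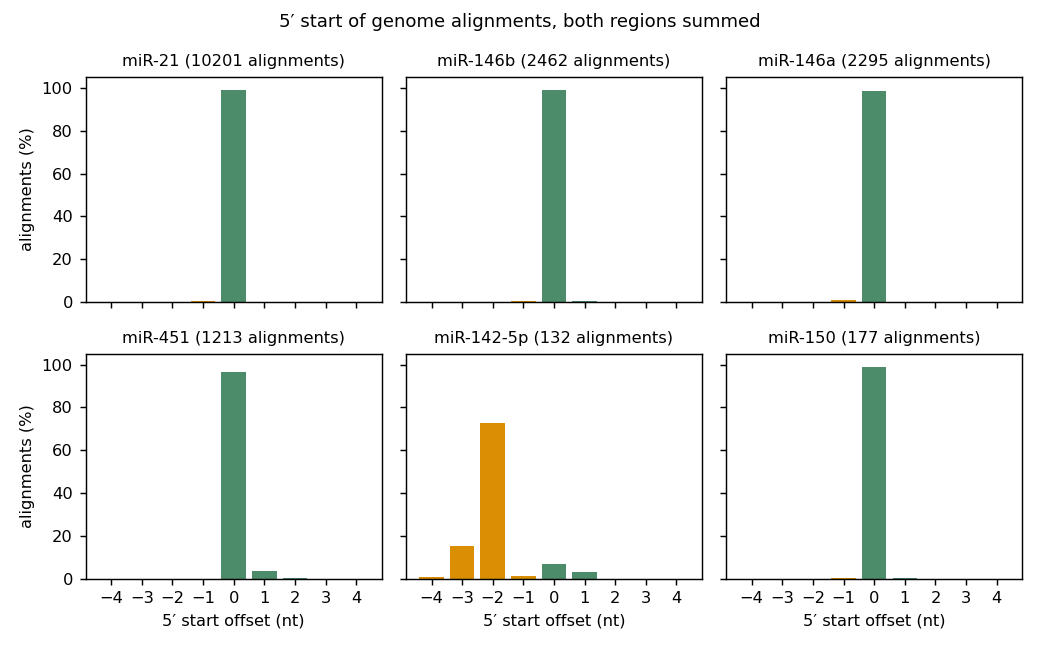
Percent of genome alignments by the offset of their 5′ end in nt (0 is the RefSeq mature start, for miR-150 the most frequent start; negative offsets, in orange, are upstream), runs and regions summed, with the number of alignments above each panel. Only the miR-142-5p panel of the 6 peaks away from 0, at -2.

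The pair miR-146a and miR-146b differ at 2 positions, counted from the 5′ end, G18A and U21C (the base of miR-146a first), which are in capitals here.
mmu-miR-146a: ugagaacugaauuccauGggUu
mmu-miR-146b: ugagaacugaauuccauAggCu
Alignment allowed up to 2 mismatches, so a read of one of the pair is within the allowance of the other, and a read with an error could be counted for either. The genome alignment allowed as many mismatches, and how many reads were exchanged was not tested. At the miR-146a locus the alignments were 0.961 of the counts. At the annotated Mir146b hairpin they were only 0.332 of the counts, with 2462 alignments beside 7424 counts. The miR-146b sequence occurs 3 times within Tmem180 on the plus strand, at chr19:46416764-46416785, chr19:46417047-46417068 and chr19:46417280-46417301, outside annotated exons, and the last of these lies in the annotated hairpin. The 3 copies had 2462, 2349 and 2462 alignments, and together 0.980 of the counts, from 0.957 to 0.985 in single libraries. The other 8 miRNAs with a sequence had 1 copy each. Reads of identical copies cannot be assigned to one of them, so the miR-146b level is a sum over the 3. With alignments at all copies in place of counts, FCx over HP for miR-146b was 1.41, 0.390 and 1.03 within the indexes.

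The other arms of the hairpins gave few reads. miR-21* had 0 counts in FCx and 9 in HP, beside 1214 and 9976 counts of miR-21, and miR-146b* had 3 and 9. At Mir144 the listed 3p arm had 6 genome alignments, and the 5p arm, which no count file used here lists, had 21, of which 4 were in FCx and 17 in HP; 12 of these 21 began at the RefSeq start and 9, with all 4 of FCx, began 2 nt upstream. Its sequence is given to show which strand was read, with the seed in capitals.
mmu-miR-144-5p: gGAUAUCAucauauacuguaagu
The arms of Mir150 were both read, and their balance differed between the adaptor indexes. In FCx, miR-150 made up 1 of 14 counts of both arms at index 3 (7.14%, exact binomial 95% interval 0.181 to 33.9%), 5 of 13 at index 7 (38.5%, 13.9 to 68.4%) and 23 of 33 at index 11 (69.7%, 51.3 to 84.4%). In HP it made up 16 of 56 (28.6%, 17.3 to 42.2%), 22 of 39 (56.4%, 39.6 to 72.2%) and 113 of 149 (75.8%, 68.2 to 82.5%). In both regions miR-150* was the larger arm at index 3 and miR-150 at index 11, and the intervals of these 2 indexes did not overlap.

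Set beside the neuronal miRNAs, the blood and immune lists were a small part of the miRNA pool, as were the vascular and oligodendrocyte lists. The 3 neuronal miRNAs miR-124, miR-9 and miR-128 took 24.1 to 27.2% of the counts in FCx and 10.3 to 16.8% in HP. Most of this was miR-128, with means of 193829 CPM in FCx and 81734.5 CPM in HP. The members did not share a direction. By library totals FCx over HP was 0.719, 0.639 and 0.815 for miR-9 and 1.84, 1.47 and 1.63 for miR-124 within the indexes. The erythroid list (miR-451, miR-144 and miR-486) summed to 64.4 to 171.7 CPM in FCx and 35.0 to 165.5 CPM in HP, the myeloid list (miR-223 and both miR-142 arms) to 7.53 to 17.9 and 6.41 to 21.2 CPM, and the lymphoid list (miR-150 and miR-155) to 4.79 to 38.3 and 5.25 to 30.3 CPM. The regions overlapped in all 3 of these lists. The inflammation-induced list (miR-21, miR-146a, miR-146b and miR-155) summed to 775.5 to 1461 CPM in FCx and 819.0 to 1918 CPM in HP; miR-155 held at most 3.07 CPM of these.

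Of the other blood and immune miRNAs, miR-342-3p had 125.7 to 574.8 CPM in FCx and 68.8 to 276.7 CPM in HP. By library totals its FCx over HP ratio was 2.08, 1.33 and 1.83 within the indexes, with 3 of 3 counting intervals above 1. Of all 431 miRNAs, 19.7% were higher in FCx in all 3 indexes. In the edgeR fit with the block miR-342-3p was not called, at a log2 fold change of 0.36 (adjusted p = 0.443). With the block and library totals it was at 0.78 (adjusted p = 0.0816) and not called either. miR-342-5p had 10.2 to 54.7 CPM in FCx and 2.18 to 47.4 CPM in HP, and miR-363 had 0 counts in FCx and 1 in HP. The vascular list summed to 273.6 to 691.2 CPM in FCx and 272.4 to 838.8 CPM in HP, with miR-143, a smooth muscle miRNA, at 374 ± 191 and 397 ± 257 CPM (SD, n = 3), miR-126-5p at 69.1 ± 4.72 and 107 ± 28.5, miR-126-3p from 7.66 to 41.4 and from 7.17 to 38.7, and miR-145 at 5.23 ± 6.54 and 6.18 ± 2.58 CPM. The oligodendrocyte list, miR-219 and miR-338-3p, summed to 528.8 to 1597 and 405.8 to 2307 CPM. In the edgeR fit without the block, 0 miRNAs of any of these lists were called. With the block, miR-126-5p (adjusted p = 0.00764) and miR-219 (0.00287) were called higher in HP as miR-21 was, and so was the neuronal miR-9 (0.0348). They were 1 of the 4 vascular, 1 of the 2 oligodendrocyte and 1 of the 3 neuronal miRNAs. Of the erythroid, myeloid and lymphoid lists, 0 of 3, 0 of 3 and 0 of 2 were called. By library totals FCx over HP of miR-219 was 0.846, 0.221 and 1.33 within the indexes, so it was higher in FCx at index 11. For miR-126-3p, which was not called, these ratios were 1.07, 0.822 and 1.07. With the block and library totals, miR-486 was called higher in FCx (log2 fold change 1.03, SE 0.34, adjusted p = 0.0235), and of the neuronal miRNAs miR-128 (1.29, adjusted p = 3.80e-15) and miR-124 (0.72, adjusted p = 0.00304) were too, whereas miR-126-5p (0.261), miR-219 (0.185) and miR-9 (0.0736) were no longer called. The part of vessel, glial or blood content in the miR-21 difference was not tested.

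**Figure D5:**
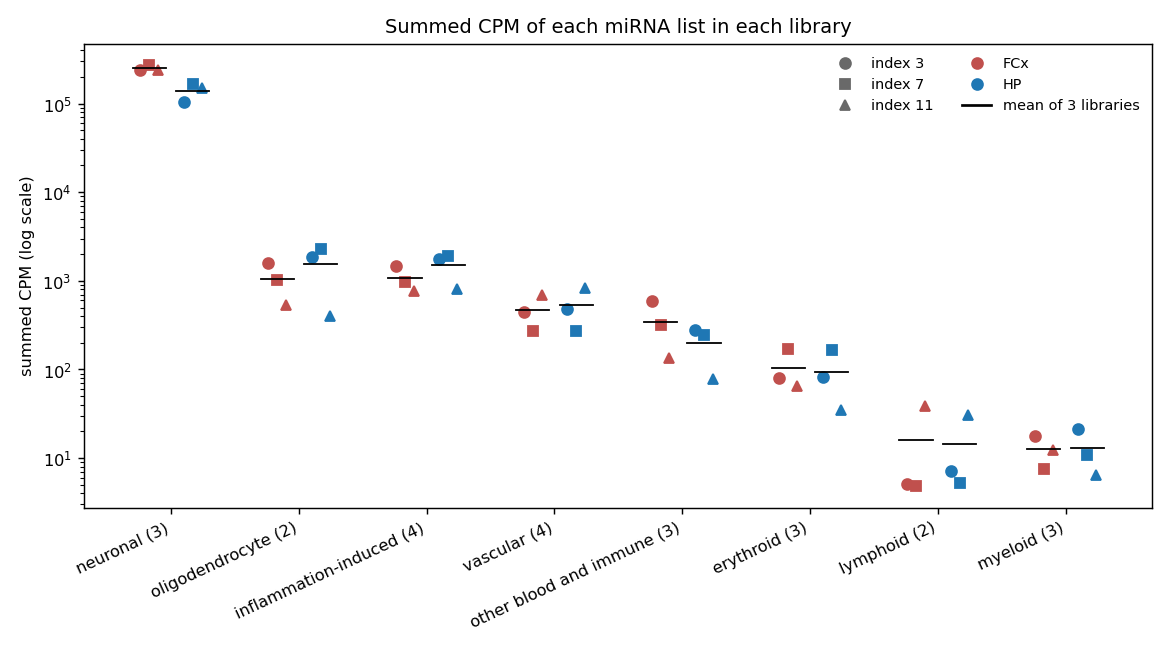
Summed CPM (log axis) of each miRNA list, with the number of its miRNAs in brackets, in the FCx (red) and HP (blue) libraries; the marker gives the adaptor index and the bar the mean of 3 libraries. The neuronal list, most of it miR-128, lies far above the others and its regions do not overlap. The erythroid, lymphoid and myeloid lists lie at 171.7 CPM or below and overlap between the regions.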

How the data were processed

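miRNA-Seq was analysed from 12 lane files, 6 of FCx and 6 of HP. Per the methods of the study, the authors split reads by index, trimmed them, removed ribosomal, mitochondrial and short reads, and aligned them with Bowtie (version not given in the sources used here) with up to 2 mismatches to the mature miRNAs of miRBase 11 and to NCBIM37. The deposited counts are raw reads per mature miRNA, in which a miRNA not listed has 0. The other deposited files hold the position of 1 genome alignment per read. The methods name a 14 nt minimum, but shorter alignments are present, so alignment lengths were not interpreted.

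Both runs of a library were summed and CPM calculated from its total of miRNA counts. FCx was compared with HP with edgeR 4.0.16 (R 4.3.3; quasi-likelihood, TMM, Benjamini-Hochberg), tested on simulated data, with DESeq2 1.42.0 as an alternative. An adjusted p under 0.05 was a call. Samples of the same index correlated in their deviations from the region means (r = 0.75, 0.84 and 0.83), which pairs them. Different indexes gave -0.58 to -0.24. Deviations from a mean sum to 0, which pulls these values below 0, so they add nothing to the pairing. Mature RefSeq sequences were matched to NCBIM37, and alignments starting within 5 nt of an arm were assigned to it (Python 3.11.15, pandas 2.3.3, numpy 2.4.6, scipy 1.17.1, matplotlib 3.10.9).

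The miRNAs named were the 10 members, their star forms, the cell type lists and, for members with a mean of at least 10 CPM, the 3 miRNAs with the most similar profile (log2 CPM, prior count 2). Members and lists were chosen with earlier results of these data known.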

Additional observations from a re-analysis of the deposited data

Results flagged for a closer look

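The FCx over HP ratio of miR-146b lay on opposite sides of 1 in 2 indexes, at 1.42 within index 3 and at 0.400 within index 7. Both the individual and the pooled run gave the same side (1.63 and 1.09 at index 3, 0.392 and 0.403 at index 7). miR-146a did the same, at 1.40 within index 3 (1.54 and 1.15 in the runs) and at 0.592 within index 7 (0.531 and 0.673). The difference between the indexes was not tested, since each index has 1 library per region. With TMM scaling the ratios at index 3, 7 and 11 all lay below 1. They were 0.842, 0.449 and 0.662 for miR-146b and 0.828, 0.666 and 0.610 for miR-146a.

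The 5p arm of miR-144 is in no count file, yet 21 genome alignments over all libraries began within 5 nt of its start (12 at the start and 9 at 2 nt upstream). By library they were 0, 3 and 1 in FCx and 7, 9 and 1 in HP (index 3, 7 and 11). Only the HP libraries of index 3 and 7 were above 3. Whether the miRNA reference used for the counts held this arm was not tested.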

How the results depend on the processing

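The number of miRNAs called between FCx and HP depended on the index block, which the pairing of the libraries calls for: 2 without it, and 77 with it, 56 with the block and library totals and 41 with the block in DESeq2. With the block and without index 3, 7 or 11 the counts were 30, 41 and 51. Without the block, DESeq2's Wald test called 12, edgeR's exact test on lane files (runs taken as replicates) 14 and the fit with no filter 8. The pooled lanes alone gave 0 by edgeR (18 at an unadjusted p under 0.05). Leaving out 1 library at a time gave 0 to 7. The count was 0 without HP index 3 (14 at an unadjusted p under 0.05) or HP index 11 (17), and 7 without FCx index 11 or HP index 7. The block changed the call of 1 of the 10 miRNAs, miR-21, and of no other. The number called for the index kept within 1.5 times of 264 in all 12 alternatives (210 to 262), as did the summed CPM of the 10 miRNAs within 1 SD.

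The sign of the log2 fold change held in all fits made for miR-21, miR-146b and miR-144, and of these only miR-21 was called in any. Signs turned, with no call in any fit, for the others. With the block miR-223 was at -0.093 (-0.011 with library totals, -0.33 without index 3, -0.43 without index 11) and in individual lanes at -0.33, and miR-142-3p was at -2.42 in pooled lanes. miR-155 was at 0.43 with the block and library totals, 0.30 in DESeq2 with the block, 0.19 and 0.54 with the block and without index 3 or 11, 0.28 with library totals, 0.11 with relative log expression, 0.11 by the Wald test, 0.070 by the exact test, 0.019 with no filter and 0.13 in individual lanes. With library totals miR-146a was at 0.022 and miR-150 at 0.15, and by the exact test miR-150 was at 0.14. Leaving out 1 library gave -0.71 to 0.12 for miR-142-5p, -0.16 to 1.69 for miR-223, -0.74 to 0.38 for miR-146a, -0.42 to 0.69 for miR-155, -2.55 to 1.80 for miR-150 and -1.46 to 0.61 for miR-451. With TMM the index 3 ratio of FCx over HP was 0.828 for miR-146a and 0.842 for miR-146b, on the other side of 1. That scaling, the alignments in place of counts and the index test without single libraries were chosen after seeing the data. The causes were not tested. Depth limits miR-142-3p, miR-144, miR-155 and miR-223 most, each with 5 or fewer counts over the FCx libraries.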
